A study of Mus musculus with 28 samples.

Results

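Genes annotated to the spliceosome pathway of KEGG were followed in 28 RNA-seq libraries of mouse liver, 14 from hepatocellular carcinoma and 14 from the tissue around the tumours. The members were all rows of the deposited gene table whose KEGG annotation names the spliceosome, without the heat shock genes whose symbols begin with Hspa. Of 18182 genes, 148 carried the annotation, 5 were Hspa genes, and 143 remained. The filter on low counts left 14117 genes to be tested, among them 126 members. The 17 members that were not tested reached a count of at most 2 in any library, and they were Hnrnpa1l2-ps2, Rbmxl2 and 15 predicted or uncharacterised loci.

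Every animal carried c-Myc/Alb-cre, a Myc transgene together with a Cre recombinase under the albumin promoter, which is active in hepatocytes, so tumour and peritumour tissue shared the genotype and no liver without it was analysed here. There were 11 Tu_F and 11 Pe_F libraries and 3 of each of Tu_M and Pe_M (Tu for tumour, Pe for peritumour). The letters F and M stand unexplained in the labels, and no age is given. Tumour and peritumour libraries were paired by the code in their titles, read as the animal, into 14 pairs. The codes are written in 2 styles, one in F pairs 1 to 3 and all M pairs and the other in F pairs 4 to 11, and results are also given within each style in case it marks a batch.

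Library totals ran from 14777567 to 17576921 estimated counts. The members held from 0.849% to 1.59% of the counts of a library. Tumour of F pair 2 stood apart at the upper end and was the highest of all 28 libraries for 44 of the 126 members tested, followed by tumour (19) and peritumour (17) of F pair 5. At the lower end, tumour of F pair 11 was the lowest library for 38 members. These ranks are by share of library counts, before TMM scaling for composition, and were not counted over all genes. The same 2 tumour libraries had the highest and lowest TMM factors, 1.36 for F pair 2 and 0.809 for F pair 11. In F pair 2 the members' median log2 difference, tumour over peritumour, was 0.52 before TMM scaling and 0.14 after it. Over all genes tested it was 0.33 before and -0.02 after. Hepatocyte markers marked all libraries as liver, with a summed level of 10 genes from 19740 to 64280 CPM (counts per 1000000).

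The spliceosome removes introns from pre-mRNA and joins exons. It assembles anew on each intron from small nuclear ribonucleoproteins (snRNPs), each built around a small nuclear RNA: U1 recognises the 5′ splice site, U2 the branch site, and the tri-snRNP of U4, U6 and U5 then joins before the Prp19 complex and RNA helicases bring about the catalytic steps. SR proteins and hnRNPs bind exons and introns and influence which sites are used. Myc is known to raise the expression of many genes of RNA processing in proliferating cells.

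Most spliceosome members were slightly higher in tumour than in the paired peritumour tissue. With the animal as a block, edgeR's quasi-likelihood test called 29 of the 126 members higher in tumour at an adjusted p under 0.05, that is 23.0% of the members beside 5.59% of all genes tested. It called 0 members lower, beside 5.91% of all genes, and DESeq2 called 41 higher, beside 8.13% of all genes, and 0 lower. The called members had log2 fold changes between 0.19 and 0.45, or 1.14-fold to 1.37-fold, with adjusted p (edgeR) from 0.00349 to 0.0494. Over all 126 members the median log2 fold change was 0.15, beside -0.01 over all genes tested, and 99 members were above 0, beside 47.6% of all genes. At an unadjusted p under 0.05, 56 members were higher and 3 lower, beside 13.7% and 14.5% of all genes. In what follows, "rose" refers to this test. The members were more abundant than the genes they are set beside, with a median mean level of 54.3 CPM beside 21.2 CPM for all genes tested. The shares were not matched for level, and its part in the calls was not tested.

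The same comparison without the block, with code style and letter as covariates, gave nearly the same sizes and far fewer calls. The members' median was 0.16 beside 0.01 for all genes, and 101 members were above 0 beside 51.8% of all genes. Only Sf3b4 and Snrpc passed, 2 of 126 members beside 0.808% of all genes, and 0 members were lower in edgeR beside 0.241% of all genes. At an unadjusted p under 0.05, 49 members were higher, beside 11.8% of all genes, and 1 was lower, beside 7.16%. DESeq2 called 9 higher, beside 3.01% of all genes, and 0 lower. The count without the block was 0 when F pair 1, 2, 6, 7, 8, 9, 10 or 11 or M pair 2 or 3 was left out, fits in which 0 to 4 of all genes tested were called higher. It was 4 without F pair 5, beside 1.18% of all genes. With the block, leaving out 1 pair gave 11 to 33 risen members. It moved by over 1.5 times without F pair 7 (15, beside 3.25% of all genes), F pair 8 (11, beside 2.69%), F pair 9 (14, beside 2.9%), F pair 10 (13, beside 3.55%), M pair 2 (18, beside 3.95%) or M pair 3 (17, beside 4.48%). The share of all genes called higher was thus lower in these fits as well. Scaling by library size alone called 43 members, beside 8.15% of all genes, and the 11 pairs of letter F alone gave 15, beside 4.26%.

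The 10 members that rose with all pairs and in every fit with 1 pair left out were Sf3a1, Sf3a2, Sf3b4 and Cherp of the U2 group, Snrpa and Snrpc of U1, the Sm protein gene Snrpg, Rbm22, Alyref and Eif4a3. Each of the 29 was higher in tumour in 10 to 14 pairs after TMM scaling. For none of the members tested did the CPM of the 14 tumour and 14 peritumour libraries lie wholly apart, nor did they for any other gene tested (0.0%).

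**Figure D1:**
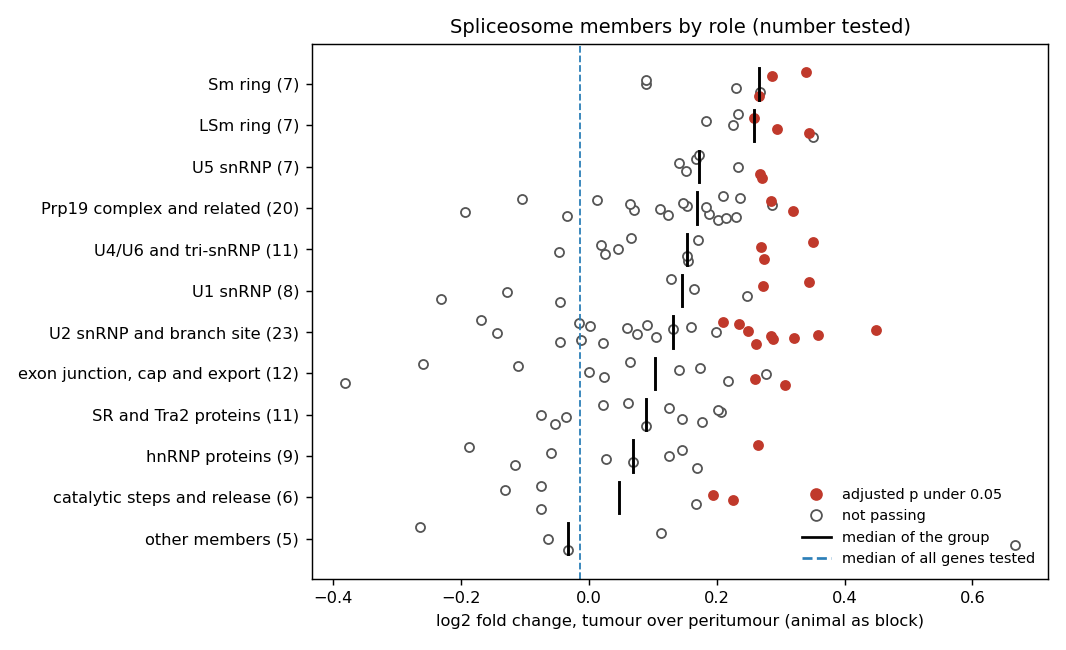
Log2 fold change of the 126 tested members, tumour over peritumour with the animal as a block, on the horizontal axis, with 1 row per role group and the number tested in brackets. Filled points passed the adjusted threshold, black bars are group medians and the dashed line is the median of all genes tested. The Sm and LSm rings have medians of 0.27 and 0.26, and the filled points all lie to the right of 0.19.

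The U2 snRNP and its branch site partners, the largest role group, held the most calls of any, 9 of 23 members tested, beside 5.59% of all genes. The median log2 fold change of the group was 0.13, beside 0.15 over all members tested. Sf3b4, a subunit of the SF3b complex that contacts pre-mRNA beside the branch site, measured 31.7 to 52.9 CPM in peritumour tissue (median 39.5) and 36.8 to 79.4 CPM in tumour (median 58.5). Of the 14 tumour libraries, 8 lay above every peritumour library, the lowest tumour level was in M pair 1, and tumour was the higher of the pair in 13 of 14. The means were 57.3 ± 12.5 and 40.4 ± 6.28 CPM (SD, n = 14 each). The log2 fold change was 0.45 ± 0.08 (SE) with the block, adjusted p = 0.00349 (edgeR), and 0.46 ± 0.09 without it, adjusted p = 0.0391 (edgeR). Sf3b4 lies on chromosome 3 at 96172506 to 96177564 (RefSeq on GRCm38.p6, as for all gene positions given here).

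In SF3a, the complex that links SF3b to the U2 particle, 2 of 3 subunits rose. Sf3a2 measured 33.9 to 57.3 CPM in peritumour tissue (median 40.1) and 41.5 to 83.1 CPM in tumour (median 58.0), with 8 tumour libraries above every peritumour library. The gene lies on chromosome 10 at 80798735 to 80804922. Its log2 fold change was 0.36 ± 0.08 (SE), adjusted p = 0.00945 (edgeR, block), and 0.36 ± 0.10 without the block, adjusted p = 0.0592 (edgeR). Sf3a1 went from 82.4 ± 16.5 to 104 ± 22.6 CPM (SD, n = 14 each), a rise seen in 13 of 14 pairs. The third SF3a subunit, Sf3a3, did not pass, with a log2 fold change of 0.08 ± 0.06 (SE).

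Of the other SF3b subunits, Sf3b3 (0.25 ± 0.08, log2 fold change ± SE) and Phf5a (0.29 ± 0.09), which with Sf3b1 forms the pocket for the branch site adenosine, rose. Sf3b2 (0.20 ± 0.07) missed the threshold with adjusted p = 0.0712 (edgeR), and Sf3b5 (0.13 ± 0.07) and Sf3b6 (0.06 ± 0.08) did not pass either. Sf3b1, the scaffold subunit known for recurrent mutations in blood and other cancers, measured 92.6 to 197 CPM in peritumour tissue (median 121) and 51.7 to 260 CPM in tumour (median 123). The groups overlapped over nearly their whole range, the highest tumour level being that of F pair 2 and the lowest that of F pair 11. Its log2 fold change was -0.14 ± 0.08 (SE), adjusted p = 0.227 (edgeR, block), with tumour higher in 3 of 14 pairs after TMM scaling, and it was 0.04 in the pairs of the first code style alone. Sf3b1 lies on chromosome 1 at 54985169 to 55027501.

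Some other U2 partners rose by similar amounts. In the whole U2 group of 23 members tested, 14 were not called and 18 had fold changes above 0. The lowest log2 fold change in the group was -0.17. U2af2, which binds the polypyrimidine tract, went from 149 ± 30.2 to 179 ± 43.9 CPM, and its partner U2af1, which reads the AG at the 3′ splice site, from 69.4 ± 12.6 to 83.6 ± 13.0 CPM (SD, n = 14 each), both with adjusted p (edgeR) close to 0.048 (0.0476 and 0.0477). Puf60, related to U2af2, rose by 0.32 ± 0.08 (log2, SE), and 7 of its 14 tumour libraries lay above every peritumour library. Cherp, a U2-associated protein, rose by 0.26 ± 0.06 (log2, SE) from 66.4 to 81.4 CPM and was higher in 13 of 14 pairs. Snrpa1, the U2 protein that binds the RNA of that particle together with Snrpb2, had a log2 fold change of 0.00 ± 0.06 (SE), and that of Snrpb2 was 0.09 ± 0.09.

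**Figure D2:**
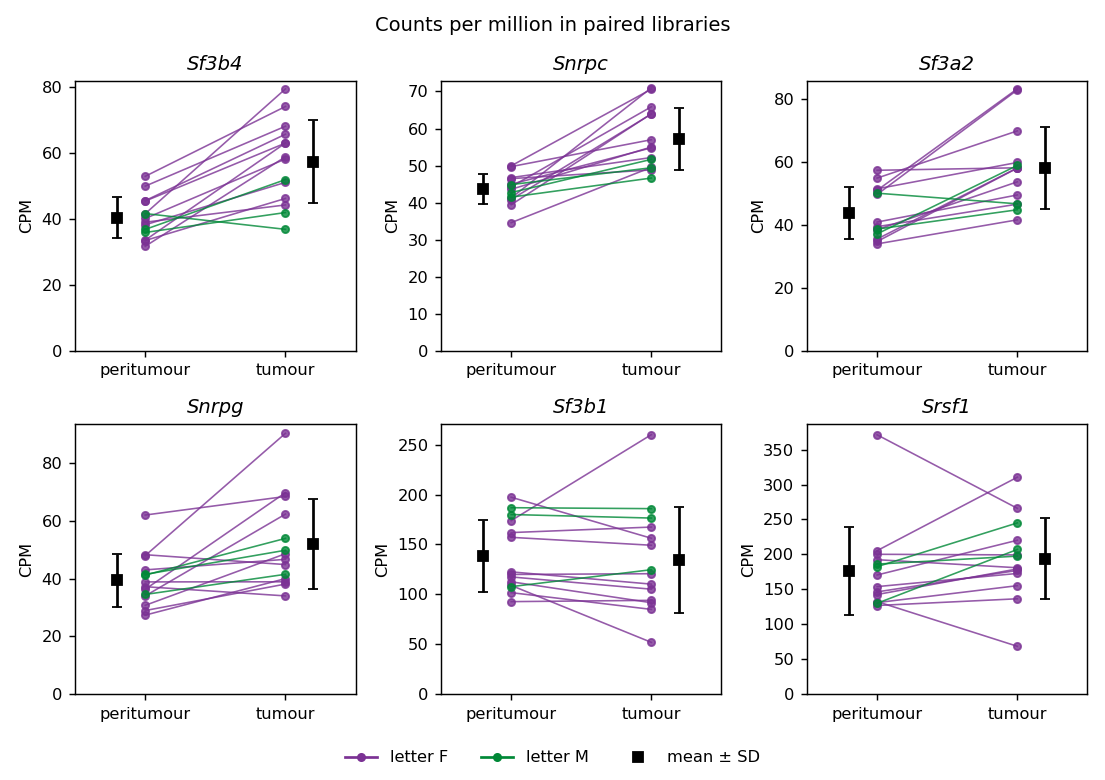
CPM (vertical axes, from 0) in peritumour and tumour libraries for Sf3b4, Snrpc, Sf3a2, Snrpg, Sf3b1 and Srsf1, with a line for each of the 14 pairs, purple for letter F and green for letter M, and black squares for the mean with its SD. Snrpc is higher in tumour in all 14 pairs and Sf3b4 in 13, while the lines of Sf3b1 and Srsf1 run both ways.

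In U1, which starts assembly at the 5′ splice site, 2 of 8 members tested rose, and the group median was 0.15. Snrpc, the U1-C protein that steadies the pairing of U1 with the splice site, measured 34.6 to 49.9 CPM in peritumour tissue (median 43.9) and 46.6 to 71.0 CPM in tumour (median 54.9). Snrpc lies on chromosome 17 at 27840028 to 27851968. It was the member with the clearest separation among those named here, with 10 of 14 tumour libraries above every peritumour library and tumour higher in all 14 pairs. Its log2 fold change was 0.34 ± 0.07 (SE), adjusted p = 0.00993 (edgeR, block), and 0.36 ± 0.09 without the block, adjusted p = 0.0421 (edgeR). Snrpa, the U1-A protein that binds a stem loop of U1 RNA, measured 56.0 to 96.5 CPM in peritumour tissue (median 64.3) and 65.1 to 113 CPM in tumour (median 83.5), and rose by 0.27 ± 0.06 (log2, SE). Its position is chromosome 7 at 27187006 to 27196271. Here the groups overlapped widely, with 1 tumour library above every peritumour library, although 13 of 14 pairs had the higher level in tumour.

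The remaining U1 members did not pass. Snrnp70, the third protein specific to U1, had a log2 fold change of 0.16 ± 0.08 (SE). Among the factors that bind U1 more loosely, Prpf40b was at 0.25 ± 0.12, with tumour higher in 10 of 14 pairs, and did not pass (adjusted p = 0.169, edgeR). Ddx5, an RNA helicase and the most abundant member of the group in CPM, averaged 417 ± 73.4 CPM in peritumour tissue and 421 ± 94.4 CPM in tumour (SD, n = 14 each). Its log2 fold change was -0.05 ± 0.07 (SE), adjusted p = 0.693 (edgeR, block).

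The Sm proteins form the ring that carries U1, U2, U4 and U5 RNA, and the related LSm proteins carry U6. All 14 tested members of both rings had fold changes above 0, 7 in each ring, and 3 rose in each. In the Sm ring these were Snrpb (0.27 ± 0.08, log2 fold change ± SE), Snrpf (0.29 ± 0.09) and Snrpg (0.34 ± 0.08). Snrpg measured 27.3 to 62.0 CPM in peritumour tissue (median 38.0) and 34.0 to 90.3 CPM in tumour (median 47.6), so the groups overlapped, and after TMM scaling it was higher in tumour in 13 of 14 pairs. Snrpb, the largest in CPM, averaged 92.9 ± 14.2 and 115 ± 17.3 CPM (SD, n = 14 each). The other Sm genes ranged from 0.09 for Snrpe and Snrpd3 to 0.27 for Snrpd1, where the SE was 0.11.

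In the LSm ring, Lsm3 (0.34 ± 0.10, log2 fold change ± SE), Lsm4 (0.29 ± 0.08) and Lsm7 (0.26 ± 0.07) rose. Lsm4 averaged 48.8 ± 10.3 CPM in peritumour tissue and 61.3 ± 11.6 CPM in tumour (SD, n = 14 each), with tumour above its pair in 12 of 14. Lsm2 had the largest value of the ring, 0.35 ± 0.12, and did not pass (adjusted p = 0.0661, edgeR). Its tumour level in F pair 9 was 110 CPM beside 37.9 CPM in the paired tissue, the widest gap among its pairs. In the deposited TPM values, which allow for transcript length, the median level was 196 TPM over the Sm genes and 71.3 TPM over the LSm genes.

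The U4/U6 and tri-snRNP group had 3 risen members of 11 tested, at a group median of 0.15. Snu13, the protein that binds the kink turn of U4 RNA and of box C/D small nucleolar RNAs, measured 120 to 222 CPM in peritumour tissue (median 149) and 123 to 318 CPM in tumour (median 182). It lies on chromosome 15 at 82041345 to 82047598. Its log2 fold change was 0.35 ± 0.09 (SE), adjusted p = 0.0242 (edgeR, block), with tumour higher in 11 of 14 pairs after TMM scaling. Sart1, needed to join the tri-snRNP to the assembling spliceosome, rose by 0.27 ± 0.07 (log2, SE), and Prpf3, a protein of the U4/U6 particle, by 0.27 ± 0.09. Prpf4, the partner of Prpf3, had a log2 fold change of 0.05 ± 0.08 (SE).

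In U5, all 7 members tested had fold changes above 0, between 0.14 and 0.27, and 2 rose. These were Ddx23, the helicase that lets U1 give way to U6 at the 5′ splice site, with 0.27 ± 0.07 (log2, SE), and Eftud2, the U5 GTPase, with 0.27 ± 0.08. Prpf8, the scaffold at the heart of the catalytic centre and the highest member of the whole set in CPM, measured 303 to 605 CPM in peritumour tissue (median 418) and 306 to 690 CPM in tumour (median 499). The groups overlapped over most of their range, and the fold change of 0.23 ± 0.09 (log2, SE) did not pass (adjusted p = 0.11, edgeR, block). After TMM scaling Prpf8 was lower in tumour in F pairs 2 and 4, with a log2 difference of -0.53 in the latter, and higher in the other 12 pairs.

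The Prp19 complex and its partners, which enter when the spliceosome is activated, had 2 risen members of 20 tested and a median of 0.17. Rbm22, which contacts U6 RNA in the activated complex, went from 39.8 ± 6.92 to 49.98 ± 10.3 CPM (SD, n = 14 each), a log2 fold change of 0.29 ± 0.06 (SE) with adjusted p = 0.0121 (edgeR, block), higher in 13 of 14 pairs. Ctnnbl1, a binding partner of Cdc5l, rose by 0.32 ± 0.09 (log2, SE). Prpf19 itself, the ubiquitin ligase that names the complex, had 0.15 ± 0.09 and adjusted p = 0.306 (edgeR). Just outside the threshold lay Xab2 (adjusted p = 0.0521), Bcas2 (0.0566) and Wbp11 (0.059), each at a log2 fold change between 0.21 and 0.24. The 3 members of the group below 0 were Crnkl1 (-0.19 ± 0.10), Syf2 (-0.11 ± 0.05) and Bud31 (-0.03 ± 0.07), and none of them passed.

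Of the 6 factors for the catalytic steps and release, 2 rose, both RNA helicases. Dhx38, which remodels the spliceosome between the steps, went from 41.9 ± 7.72 to 50.9 ± 12.2 CPM (SD, n = 14 each), a log2 fold change of 0.22 ± 0.06 (SE) with adjusted p = 0.0194 (edgeR, block). Dhx8, which releases the mRNA, rose by 0.19 ± 0.06 (log2, SE), the smallest change that passed. The helicase Dhx16 was at 0.17 ± 0.06 and did not pass (adjusted p = 0.091, edgeR). The factors of the second step Slu7, Prpf18 and Cdc40 had values of -0.08, -0.13 and -0.07, and none passed.

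Among 12 members of the exon junction complex, the cap-binding complex and mRNA export, 2 rose. Eif4a3, the helicase that anchors the exon junction complex, measured 79.9 to 143 CPM in peritumour tissue (median 94.8) and 91.0 to 165 CPM in tumour (median 124), with a log2 fold change of 0.26 ± 0.06 (SE), adjusted p = 0.017 (edgeR, block). Alyref, the adaptor that passes spliced mRNA to the export receptor, went from 34.4 ± 8.48 to 43.4 ± 8.47 CPM (SD, n = 14 each), a log2 fold change of 0.31 ± 0.07 (SE). Both were higher in tumour in 13 of 14 pairs. Ddx39b, the export helicase of the same pathway, was at 0.22 ± 0.08 and did not pass (adjusted p = 0.0865, edgeR). Alyref2, a little expressed relative of Alyref with about 2 CPM in either tissue (1.97 in tumour and 2.43 in peritumour), was at -0.38 ± 0.15, and Thoc2 of the THO complex at -0.26 ± 0.15. Neither passed.

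The next groups hold the regulators of site choice, for which counts as small as these cannot be set apart from the 5.59% of all genes. The counts in the role groups above are also small, and no role group was tested against that share. None of the 11 SR and Tra2 proteins passed in edgeR with the block, 3 were higher and 0 lower at an unadjusted p under 0.05, and the median was 0.09. Srsf1, an SR protein known to act as an oncogene when overproduced, measured 127 to 371 CPM in peritumour tissue (median 162) and 68.2 to 311 CPM in tumour (median 189). No tumour library exceeded the highest peritumour library, that of F pair 5, and the fold change was 0.09 ± 0.10 (log2, SE). Srsf6 (0.21 ± 0.07, log2 fold change ± SE) and Srsf2 (0.18 ± 0.07) were higher in tumour in 12 and 11 of 14 pairs and did not pass (adjusted p of 0.0761 and 0.0951, edgeR). Both passed under library size scaling (0.0323 and 0.0458, edgeR) and without F pairs 2, 5 and 6 (0.0308 and 0.0401, edgeR). DESeq2 with the block called all 29 members that edgeR called, among its 41.

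Of the 9 hnRNP proteins tested, 1 rose, Rbmxl1 with 0.26 ± 0.08 (log2, SE), adjusted p = 0.0446 (edgeR, block). Rbmxl1 is a retrocopy close in sequence to Rbmx, and Rbmx was at -0.19 ± 0.08. How reads were divided between these genes was not tested, and both values are uncertain for that reason. Hnrnpa1, which binds exonic and intronic silencers, ranged from 129 to 674 CPM in tumour and from 155 to 458 CPM in peritumour tissue, with both ends of the whole range in tumours, F pair 11 and F pair 2. Its fold change was 0.17 ± 0.11 (log2, SE). Hnrnpk, the most abundant of the group in CPM, averaged 417 ± 64.5 CPM in peritumour tissue and 442 ± 96.4 CPM in tumour (SD, n = 14 each), with a fold change of 0.03 ± 0.05 (log2, SE). The 20 members in no role group included 5 that were tested, and none of these passed. The most abundant of them in CPM, though not the one with the largest fold change, was Rp9, known as a retinitis pigmentosa gene. Its log2 fold change was 0.11 ± 0.06 (SE).

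In levels per transcript length, the hnRNP genes had a median of 143 TPM and the Sm genes of 196 TPM, above the U2 group with 50.5 TPM and the catalytic group with 14.7 TPM. Pcbp1 was the highest single member with 365 TPM, and Snrpg followed with 290.0 TPM.

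**Figure D3:**
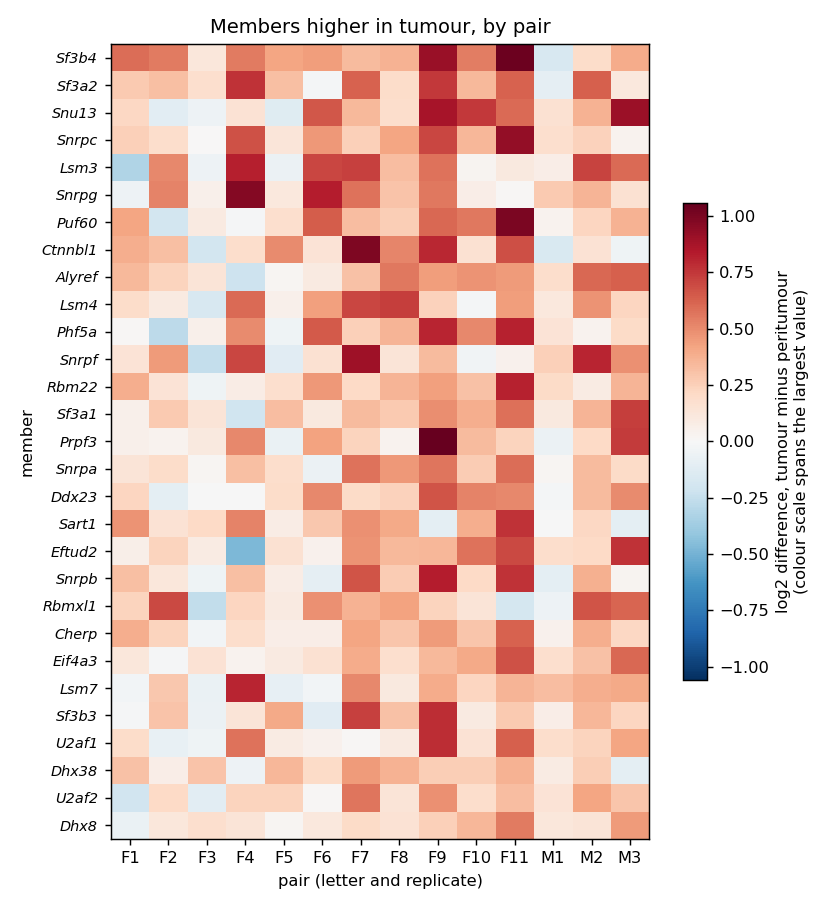
Difference in log2 CPM (TMM-scaled, prior count 2) between tumour and peritumour in each of 14 pairs (columns) for the 29 members that rose (rows, ordered by fold change), red for higher and blue for lower in tumour. Sf3b4 and Snrpc are red in nearly every column, and F pair 3 has the fewest members higher in tumour, 15 of 29.

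Pairs differed in how far the members moved. The median difference over 126 members, tumour minus peritumour in log2 CPM after TMM scaling, was above 0 and above the median of all genes in 12 of 14 pairs. It was lowest in F pair 3 (-0.04) and F pair 5 (-0.03) and highest in M pair 3 (0.29) and F pair 9 (0.29). The SD of the pair medians was 0.10. In F pair 3, 47 of 126 members were higher in tumour, and in M pair 3, 107 were.

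Pair F 11 showed the widest split, with quartiles of -0.40 and 0.47. There Sf3b4 was higher in tumour by 1.04 and Snrpc by 0.93 on the log2 scale, while Sf3b1 was lower by 0.93 (a difference of -0.93). Its tumour library, which had the lowest TMM factor, was also the one with the lowest Srsf1, Srsf2, Srsf6, Hnrnpa1, Hnrnpk and Ddx5 in CPM among the 14 tumours. Without that pair, 20 members rose, beside 4.08% of all genes.

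**Figure D4:**
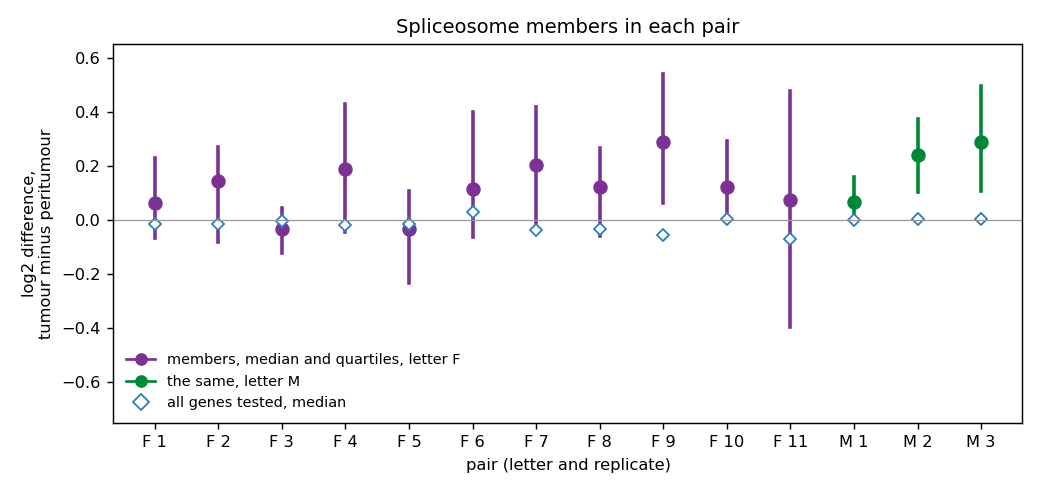
Median (points) and quartiles (bars) over 126 members of the log2 difference between tumour and peritumour in each pair, purple for letter F and green for letter M, with the median of all genes tested as diamonds. Points lie above their diamonds in 12 of 14 pairs, and F 3 and F 5 are the exceptions.

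The direction of the set was the same in both code styles, although fewer genes passed in each. With the block, the median was 0.14 in the 6 pairs of the first style and 0.17 in the 8 pairs of the second. In the first style 0 members passed in edgeR, as did 0.0% of all genes, and 13 members were higher and 1 lower at an unadjusted p under 0.05, beside 3.76% and 5.01% of all genes. In the second, 12 members rose beside 3.42% of all genes. All 29 risen members had fold changes above 0 in either style. They were chosen in a fit over these same pairs, so their signs here are no separate evidence.

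Animals of letters M and F were compared in each tissue and in the size of the tumour difference. No member passed in edgeR for Tu_M against Tu_F, beside 0.0283% of all genes higher and 0.0% lower, and DESeq2 called 0. Without adjustment 1 member was higher at p under 0.05, Ncbp1 of the cap-binding complex (0.52 on the log2 scale), beside 3.05% of all genes, and 0 were lower, beside 6.79%. For Pe_M against Pe_F the count was also 0, beside the same shares of all genes, and it was 0 in DESeq2 and 0 without adjustment, beside 0.786% of all genes higher and 0.737% lower. The members' medians were 0.01 in tumour and -0.07 in peritumour tissue. Scaling by library size alone shifted the median of all genes to -0.11 and -0.13 in these comparisons, and the members' medians to -0.11 and -0.18.

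The tumour difference itself was not distinguishable between letters for any member in edgeR, beside 0.0% of all genes. At an unadjusted p under 0.05, 6 members had a larger and 1 a smaller difference in M, beside 3.81% and 3.28% of all genes, and the smallest adjusted p was 0.689 (edgeR). That 1 member was Sf3b4, whose mean difference was 0.53 ± 0.26 in F pairs (SD, n = 11) and 0.14 ± 0.28 in M pairs (SD, n = 3), on the log2 scale. The pair medians averaged 0.11 ± 0.10 in F (SD, n = 11) and 0.20 ± 0.12 in M (SD, n = 3). With 3 M pairs, all of the first code style, a p that misses the threshold does not show that the letters are alike.

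In further lists of splicing genes outside the KEGG annotation, 5 of 83 genes tested were higher and 2 lower in tumour with the block, beside 5.59% and 5.91% of all genes. Of 15 genes for the assembly of Sm rings, Smn1, the gene of the survival motor neuron protein, rose from 15.6 ± 3.46 to 20.1 ± 4.68 CPM (SD, n = 14 each). By CPM, before TMM scaling, it was higher in tumour in all 14 pairs. Its log2 fold change was 0.32 ± 0.08 (SE), adjusted p = 0.0149 (edgeR, block). The median of the 15 was 0.11. Of 10 proteins of the minor spliceosome none passed in edgeR, at a median of 0.13, and of 29 other hnRNP and SR-like proteins none passed, at a median of 0.06. Among 9 tested SR protein kinases and phosphatases, the kinases Srpk1 (0.19 ± 0.05, log2 fold change ± SE) and Dyrk1a (0.21 ± 0.06) rose.

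Tissue regulators of alternative splicing went both ways, with 2 of 20 tested higher and 2 lower. Ptbp1, the polypyrimidine tract binding protein, rose from 357 ± 69.0 to 440 ± 101 CPM (SD, n = 14 each), and Rbfox2, which binds intronic sites beside regulated exons, from 48.1 ± 8.22 to 61.1 ± 16.6 CPM. Mbnl3, a muscleblind protein, fell by 0.71 on the log2 scale from 7.48 ± 4.51 to 5.25 ± 4.02 CPM, and Celf2 fell by 0.48. By CPM, each was lower in tumour in 12 of 14 pairs (higher in 2). None of the genes in these further lists passed without the block.

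Markers of cell types moved between the tissues as well. Marker calls in this and the next paragraph are from edgeR with the block, beside 5.59% of all genes higher and 5.91% lower. Without the block, 2 stellate cell and fibroblast markers were lower, beside 0.241% of all genes, and no other marker passed. In bulk tissue, fewer cells of a type and less RNA per cell cannot be told apart. Hepatocyte markers were lower for 5 of 10 genes, and their sum ran from 23470 to 51290 CPM in tumour and from 19740 to 64280 CPM in peritumour tissue and was higher in tumour in 1 of 14 pairs, F pair 5. Proliferation markers passed for 0 of 12 genes in edgeR, at a median of 0.21, with sums of 361 to 1386 CPM in tumour and 305 to 1160 CPM in peritumour tissue, higher in tumour in 9 of 14 pairs and lower in F pairs 1, 3, 4, 5 and 11. Among these 5, the spliceosome members' median was below 0 in F pairs 3 (-0.04) and 5 (-0.03). It was above 0 in F pairs 1 (0.06), 4 (0.19) and 11 (0.07), and a link with proliferation was not tested.

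Of macrophage markers 4 of 10 were lower (sum 334 to 1250 CPM in tumour, 494 to 1297 in peritumour tissue), of endothelial markers 3 of 10 (138 to 311 and 173 to 374), and of stellate cell and fibroblast markers 4 of 10, with 1 higher (222 to 1866 and 426 to 1461). Of cholangiocyte markers 1 of 9 was higher (61.1 to 2153 and 71.5 to 356), the 2153 CPM being tumour of F pair 2. Erythroid precursor genes (60.6 to 425 and 89.8 to 580), granulocyte precursor genes (11.7 to 578 and 19.0 to 752) and lymphocyte genes (5.63 to 36.9 and 7.17 to 22.3) had 0 called members in edgeR. No marker was at 0 in all libraries. Their part in the result was not tested. F pairs 2, 5 and 6 were left out together because earlier results of these data set them apart by their blood cell precursor genes. F pair 4 was kept, although the granulocyte precursor sum of its tumour was 461 CPM, beside 40.8 CPM in its peritumour tissue. Without F pairs 2, 5 and 6 the members' median was 0.19 and 30 members rose, beside 7.01% of all genes. Of these 30, 24 were among the 29.

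Promoters of the members were read for the E-box CACGTG, the site that Myc binds with Max. The windows were those of RefSeq on GRCm38.p6, from 250 bases before to 50 after each start, and 113 of the 143 members had at least 1. The hexamer, which is its own reverse complement, stood in the windows of 10 members (8.85%), of 8.09% of all genes in the promoter table and of 11.3% of all genes tested. Among all genes higher in tumour with the block it stood in 17.96% of those with a window, and among the 19 risen members with a window in 2 (10.5%), Snrpa and Prpf3. A window of each of these is shown with the hexamer in capitals, followed by that of Snrpc, which among the named members had the most tumour libraries above every peritumour library and holds no match. They run 5′ to 3′ on the strand of the gene, at chr7:27196222-27196521 (minus strand), chr3:95855836-95856135 (minus strand) and chr17:27839837-27840136 (plus strand).
Snrpa: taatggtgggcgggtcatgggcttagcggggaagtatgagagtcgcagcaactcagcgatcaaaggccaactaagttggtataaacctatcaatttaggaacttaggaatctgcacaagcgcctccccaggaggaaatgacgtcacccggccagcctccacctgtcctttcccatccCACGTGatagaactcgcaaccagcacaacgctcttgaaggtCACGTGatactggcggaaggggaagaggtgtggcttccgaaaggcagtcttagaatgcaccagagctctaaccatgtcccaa
Prpf3: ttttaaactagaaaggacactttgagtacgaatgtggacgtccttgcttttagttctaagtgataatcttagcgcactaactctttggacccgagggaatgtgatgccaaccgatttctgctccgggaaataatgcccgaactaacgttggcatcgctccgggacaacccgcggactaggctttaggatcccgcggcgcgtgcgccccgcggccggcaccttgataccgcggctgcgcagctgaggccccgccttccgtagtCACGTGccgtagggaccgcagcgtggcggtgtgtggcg
Snrpc: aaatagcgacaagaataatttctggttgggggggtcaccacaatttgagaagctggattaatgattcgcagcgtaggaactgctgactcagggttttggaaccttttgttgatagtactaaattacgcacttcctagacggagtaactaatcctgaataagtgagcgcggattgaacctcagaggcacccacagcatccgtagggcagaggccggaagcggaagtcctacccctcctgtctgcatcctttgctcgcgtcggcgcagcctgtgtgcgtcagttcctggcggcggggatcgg
In the Snrpa window the first of 2 matches begins at position -73 from the start, and the single match of the Prpf3 window begins at position 13 of the transcript. A match in these letters is a description and says nothing on binding in these livers.

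The sources used here do not say whether reads were counted by strand. By RefSeq coordinates, 8 of the 29 risen members overlap another annotated gene, 5 of them a protein-coding one, such as Eftud2 with Higd1b over 5670 bases, Snrpf with Ccdc38 over 1299 and Snrpa with BC024978 over 491. These overlaps are of whole gene spans, introns included, and shared exons were not looked for. Reads of such neighbours may not be told apart where their exons overlap. The short Sm and LSm genes, Snu13, Hnrnpa1 and Eif4a3 are likewise uncertain where processed copies elsewhere in the genome share their reads.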

How the data were processed

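RNA was extracted with Trizol, selected with oligo(dT) beads and primed with random hexamers, per the labels' protocols. The submitters' processing notes list RSEM 1.2.12, Bowtie2 2.2.5, HISAT2 2.0.4 and DESeq2 1.4.5 and do not say what each did. Values deposited by the authors are estimated counts and TPM per gene and library, per the file headers, and 8.06% of the estimated counts are not whole. A line lacking a gene ID was dropped, and 26 symbols turned into dates were restored by gene ID. Members and gene lists were chosen with earlier results of these data known.

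Estimated counts were rounded. All 14117 genes passing filterByExpr were fitted with edgeR 4.0.16 (R 4.3.3, TMM factors from 0.809 to 1.36, robust quasi-likelihood test, Benjamini-Hochberg adjustment over all genes tested, threshold 0.05). Tumour was compared with peritumour tissue without a block (covariates code style and letter) and with the animal as a block. Pairing by shared code was checked: deviations from group means correlated within every pair (0.135 to 0.61, unpaired median -0.0171), the partner was the best match of the tumour library in 10 of 14 pairs (all but F pairs 2 and 6 and M pairs 1 and 3), and the biological coefficient of variation was 0.27 with the block and 0.381 without it. Contrasts of M and F came from 1 fit of 4 groups with code style. CPM are estimated counts before rounding, per 1000000, and differences per pair are TMM-scaled log2 CPM of the rounded counts with a prior count of 2. Counts of pairs are after TMM scaling for members and by CPM for the further lists and marker sums. No libraries of 1 group agreed within sampling noise (lowest index of dispersion 19.2). The labels do not say that replicates are separate animals beyond the shared codes, so p-values measure the spread between these samples. Named members were those passing without the block, up to 10 each way with the smallest adjusted p with it, the smallest p and highest CPM of each role group, and Sf3b1, Srsf1, Srsf2, U2af1, Hnrnpa1 and Prpf8; others are named from a count or after their values were seen. Alternatives were library size scaling, RLE factors, no filter, DESeq2 1.42.0, each pair left out, each code style alone, letter F alone, no covariates, and F pairs 2, 5 and 6 left out. The values of 1 member are not reported here.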

Additional observations from a re-analysis of the deposited data

How the results depend on the processing

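No setting tried called a member lower in tumour. The members' median log2 fold change stayed between 0.13 and 0.20 without the block and between 0.13 and 0.19 with it. Brackets below give all genes called higher, of those tested. Without the block, the 2 calls (114 of 14117) became 1 with no filter on low counts (53 of 18145) and 9 in DESeq2 (425 of 14117). They became 8 without F pairs 2, 5 and 6 (233 of 13831) and 29 with the animal as a block (789 of 14117). The count was 0 in the first code style, in the second and in letter F alone, as it was over all genes. With 1 pair left out it was 0 to 4 (0 to 166 over all genes). With the block, the 29 calls became 43 under library size scaling (1151 of 14117) and 41 in DESeq2 (1148 of 14117). They became 25 under RLE factors (747 of 14117) and 22 with no filter (671 of 18145). There were 0 in the first code style alone (0 of 13663), 12 in the second (447 of 13055) and 15 in letter F alone (558 of 13084). With 1 pair left out there were 11 to 33 (380 to 1010 over all genes). Fewer samples were fitted in these subsets; the cause of the other shifts was not tested. DESeq2 called all 29 risen members, and library size scaling 28 of them.

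Signs turned for 5 named members that passed in neither fit. Without the block, Ddx5 was at 0.0024 under library size scaling and 0.0662 in the first code style, Sf3b1 at 0.043 there, and Hnrnpa1 at -0.0126, Hnrnpk at -0.0009 and Srsf1 at -0.0023 in the second. With the block, Ddx5 was at 0.0662 and Sf3b1 at 0.0419 in the first style, Hnrnpa1 at -0.0065 and Hnrnpk at -0.0067 in the second, and Hnrnpk at -0.0023 in letter F alone. The comparisons of M and F gave 0 members in every setting, the interaction without the block included. Depth allowed no test for 17 members with counts of at most 2.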
